A study of Danio rerio with 6 samples.

Results

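The genes described here are the 200 that were most depleted from control replicate 2 of a zebrafish juvenile RNA-seq series, a library that stood apart from the other 5. For each of the 32520 genes in the table the read count was divided by the total of its library and scaled to counts per 1000000 reads (CPM). The 10541 genes with at least 10 CPM in each of the other 5 libraries could have been chosen, and they are called eligible genes below. The members are the 200 eligible genes with the smallest ratio of CPM in control replicate 2 to the lowest CPM among the other 5 libraries, with 0.5 added to both, and they make up 1.9% of the eligible genes. The members were thus chosen by their measured CPM in control replicate 2 and in the lowest other library, so their low level in that library is a description and carries no test.

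A whole-body library mixes the messenger RNA of every organ in proportion to the RNA that each organ contributes. Some transcripts come mostly from a single cell type or a few. Examples are the zymogens of the exocrine pancreas, the gel-forming mucins of epithelial goblet cells and the recombinase of developing lymphocytes. Others are made in many cell types, such as fibrillar and network collagens, proteins of the Ras pathway, integrin subunits and enzymes of amino acid metabolism. In pools of whole bodies, fewer cells of a type and less RNA per cell cannot be told apart.

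Juveniles of the AB strain were exposed from fertilization and sampled at an age of 32 days. For these 32 days they were raised in water with exemestane (EM) at 10 µg/L or with the solvent control, dimethyl sulfoxide (DMSO) at 10 µL/L. The EM was itself dissolved in DMSO, and the EM group also had DMSO at 10 µL/L. EM is a steroid drug that blocks aromatase, through which androgens are turned into estrogens. Each group had 3 libraries, and each library pooled the whole bodies of 25 fish from a tank of its own, so that differences between single fish were not measured and p-values measure the spread between tanks. The sex of the pooled fish is not given in the labels.

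Control replicate 2 was the smallest library, with a total of 3169530 counts against 4057579 to 7804654 in the others, and 21182 genes were detected in it against 24418 to 24966. A single read is therefore a larger step in CPM in this library than elsewhere, and 3 counts, taken here as the floor, correspond to 0.947 CPM in it and to 0.384 to 0.739 CPM in the others. The median eligible gene had 23.3 CPM in control replicate 2 and 35.5 to 38.2 CPM in the other libraries. With median-of-ratios scaling, in which the typical gene rather than the total is held level, every value of control replicate 2 moved up against the other libraries by 0.70 to 0.79 on the log2 scale, and folds below the other libraries given in CPM shrink by that amount.

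The ratio had a median of 0.777 over all eligible genes. It was above 1 for 3952 of them (37.5%), below 0.5 for 3270 (31.0%) and below 0.1 for 411 (3.90%). Among the 200 members it ran from 0.00295 to 0.0624 with a median of 0.0406. The distribution of the ratio had no gap at the threshold. The last members inside were CCR9 (0.0620), LCT (0.0621) and ido1 (0.0624), and the first genes outside were PHLDB2 (0.0629), pcdh20l (0.0629) and ponzr10 (0.0631). The members are thus the end of a continuous tail and not a separate class.

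**Figure D1:**
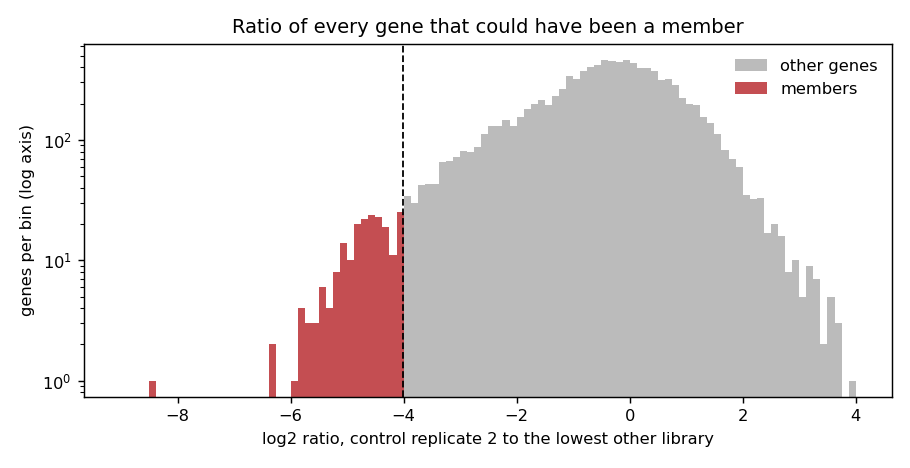
Number of eligible genes per bin of the log2 ratio of control replicate 2 to the lowest other library, on a log axis, with the 200 members in red, the other eligible genes in grey and the threshold as a dashed line. The members form the lower tail of 10541 genes, and the grey tail meets the threshold without a gap.

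Very few reads of the members were left in control replicate 2. No read was counted for 68 members, between 1 and 3 for 84, and more than 3 for 48, of which 16 had at least 10. The median member had 1 count and the highest, COL10A1, had 153. At the lowest CPM seen in the other libraries, the depth of control replicate 2 would have given each member between 31.9 and 2960 counts, with a median of 68.9. The minimum of 10 CPM in the rule sets the lower end of this range. All 68 eligible genes without a read in control replicate 2 are members, and none of the eligible genes had 0 counts in any other library, as the rule requires.

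As a share of all counts, the 200 members took 0.0235% of control replicate 2 (95% Wilson interval 0.0219 to 0.0253%). They took 0.990% of control replicate 1, 1.65% of control replicate 3, and 1.59%, 1.29% and 1.36% of EM replicates 1, 2 and 3. The median member was at 0.316 CPM in control replicate 2. In the other libraries the median was 25.7 CPM (control replicate 1), 33.7 CPM (control replicate 3), 34.9 CPM (EM replicate 1), 29.4 CPM (EM replicate 2) and 30.2 CPM (EM replicate 3). The 48 members with more than 3 counts were 17.1-fold to 59.5-fold below the lowest other library, with a median of 26.9-fold. That median was 16.2-fold with median-of-ratios scaling and 16.6-fold with TMM scaling. For the 68 members without a read, the floor of 3 counts in control replicate 2 put the difference at no less than 10.6-fold to 178-fold, with a median bound of at least 14.1-fold. Counting intervals and floors here cover counting error only, because the reads carry no molecular identifiers and several may come from a single molecule.

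**Figure D2:**
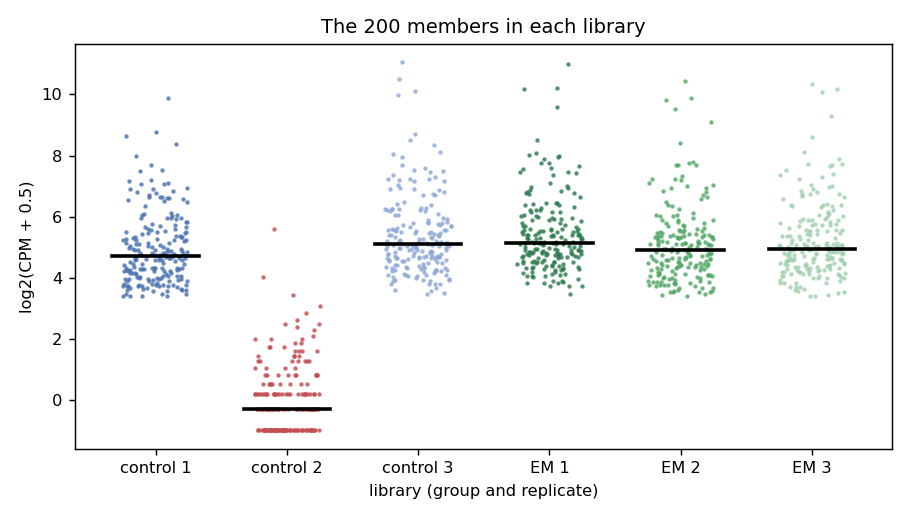
Level of each of the 200 members in each library as log2(CPM + 0.5), with 1 point per gene and a black line at the median of the library. The medians of 5 libraries lie between 25.7 and 34.9 CPM, and that of control replicate 2 at 0.316 CPM, with the members without a read in the lowest band.

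A reference table named 191 of the members. Only a clone name, or no name at all, was had by 25, and 175 carried a gene symbol proper. The table spells 113 of them in capitals, as for human genes, and these spellings are kept. The functions given below are those of the mammalian proteins unless zebrafish is named. Values in the 5 other libraries are listed in the order control replicates 1 and 3, then EM replicates 1, 2 and 3.

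The member with the lowest ratio, ENSDARG00000104569, has no symbol. It had 0 counts in control replicate 2 and 181, 325, 258, 219.7 and 169 CPM in the others, a difference of at least 178-fold. The next, tfr1a, is a transferrin receptor that brings iron into cells and serves developing red cells in zebrafish. It also had 0 counts, against 42.7, 78.1, 86.7, 40.5 and 58.2 CPM. MELTF, melanotransferrin, is an iron-binding cell surface protein of the transferrin family. It kept 33 counts (10.4 CPM) in control replicate 2 and stood at 441, 1115, 773, 729 and 629.9 CPM elsewhere, 42.3-fold above it even in the lowest library (counting interval 30.1 to 61.5). The aconitase ACO1, whose iron-free form binds and regulates messages of iron metabolism in mammals, had 2 counts against 24.7 to 65.6 CPM. The rule places every member far below the range of the other libraries, so the low values of these genes are no separate result. The 6 eligible red blood cell markers held 0 members and had a median ratio of 1.40, with 4 of them above 1. ENSDARG00000117361, the other member without a symbol among the lowest, had 1 count against 36.9 to 61.3 CPM.

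The gel-forming mucins were among the most depleted members. These large secreted glycoproteins form mucus on gut, gill and skin epithelia. For muc5.1, control replicate 2 held 21 counts (6.63 CPM) against 394, 1009.9, 1195, 910.1 and 1299 CPM, and the lowest of these was 59.5-fold higher (counting interval 38.9 to 96.1). Control replicate 1 was also low for muc5.1, below every other library but control replicate 2. The gene muc5.2 had 0 counts in control replicate 2 and 30.2, 18.7, 61.1, 20.1 and 101 CPM in the others, at least 19.8-fold higher. EM replicates 1 and 3 were the high libraries for muc5.2, while control replicate 3 and EM replicate 2 were close together at the bottom. Both genes lie next to each other in the gene order of the reference assembly, and reads that they may share were not examined. Of the 4 eligible mucins, a family chosen after the values were seen, the other two were muc5.3, at 2.84 CPM in control replicate 2 against 27.7 to 79.4 CPM, and muc13b, at 114 against 162 to 245 CPM. The membrane-bound muc13b had by far the highest ratio of the 4, 0.702.

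Junctions and surfaces of epithelia gave further members. DSP, desmoplakin, ties desmosomes to keratin filaments and had 5 counts in control replicate 2 against 90.2, 143, 177, 122 and 184 CPM, 57.2-fold below the lowest (counting interval 24.5 to 176). A second gene named DSP, not a member, was at 44.8 CPM against 343 to 523 CPM. The desmosomal cadherin dsg2.1 had 15 counts against 115 to 200.1 CPM. Among genes of the intestinal brush border, the microvillar cadherin cdhr5b had 6 counts against 96.2, 103, 83.5, 82.3 and 85 CPM and LCT, the disaccharidase lactase, had 25 counts against 135, 249, 217, 218 and 209 CPM. The values of the other 5 libraries were close to one another for cdhr5b, all within 1.25-fold. The list of 18 eligible intestine markers held 0 members, had a ratio above 1 for 8 of them, and in control replicate 2 its sum lay within the range of the other libraries in CPM. The surface antigen gpa33b had 1 count against 16.4 to 20.1 CPM. The membrane-bound inhibitors of serine proteases spint1b and spint2, which act on epithelial surfaces, had 2 and 16 counts against 18.6 to 47.6 and 94.5 to 215 CPM. fam83ha, named for a human gene of enamel formation, had 1 count against 37, 34.8, 39.7, 43.1 and 54.2 CPM.

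The integrin family held 5 members of 22 eligible genes (22.7%, against 1.9% of all eligible genes). Integrins are pairs of alpha and beta chains that hold cells to the extracellular matrix or to each other, and this family was chosen after the values were seen. The beta chain ITGB1 is the partner of most alpha chains that bind matrix, and 2 genes of that name were members. ENSDARG00000104484 had 2 counts in control replicate 2 and 38.4, 53, 58.3, 41.2 and 66 CPM in the others, and ENSDARG00000053232 had 2 counts and 30.9, 38.6, 41.4, 35.2 and 48.8 CPM. Their ranges outside control replicate 2 were narrow, 1.72-fold and 1.58-fold from lowest to highest, with the highest value of both in EM replicate 3. ITGAV, the alpha chain of vitronectin receptors, had 14 counts against 88.4, 184, 193, 122.6 and 126 CPM, 20-fold below the lowest (counting interval 11.9 to 36.6). The chains of leukocyte integrins itgam.1 and itgae.2 had 0 counts and 1 count against 15.6 to 34.6 and 14.1 to 24.4 CPM. The median ratio over all 22 eligible integrin genes was 0.231, compared with 0.777 over all eligible genes, and the summed level of the family was below every other library in control replicate 2 in CPM and under both other scalings. Not all of them were low: the ratio was above 1 for 3, among them ITGA11, at 36.6 CPM against 27.7 to 68.8 CPM.

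Proteins that link integrins to the actin skeleton held 4 members of 17 eligible (23.5%), again in a family chosen after the values were seen. PARVA, alpha-parvin, and RSU1 belong to the complex around integrin-linked kinase, and both had 0 counts in control replicate 2, against 16.1, 34, 27, 22.7 and 26.1 CPM and 13.1, 16.1, 19.9, 11 and 10.8 CPM. VCL, vinculin, which joins talin to actin, had 1 count against 27.2, 39.6, 35.1, 18.2 and 27.1 CPM. A second vinculin gene outside the list was at 4.73 against 28.2 to 42.4 CPM. NPNT, nephronectin, a matrix ligand of integrins in kidney and other organs, had 1 count against 18.4 to 38 CPM. The kinase ILK itself was at 22.4 CPM against 69.6 to 94.6 CPM, and TLN1, talin, at 23 against 66.8 to 169 CPM. Both were low in control replicate 2 but far above the level of the members. In the same family PARVB and lims2 were higher in control replicate 2 than the lowest other library, at 34.7 CPM against 17.3 to 43.3 CPM and 80.5 CPM against 20.2 to 37.7 CPM.

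The list of collagens, laminins and other matrix proteins held 5 members of 67 eligible genes (7.46%). COL4A1 and COL4A2 code for the chains that together form the collagen network of basement membranes. COL4A1 had 9 counts in control replicate 2 against 92.4, 277, 245, 64.6 and 83.1 CPM, and COL4A2 had 4 counts against 81.7, 267, 254, 56 and 79.1 CPM. For both genes control replicate 3 and EM replicate 1 were high, and control replicate 1 and EM replicates 2 and 3 were low, so that the groups overlapped. FBN3, a fibrillin of extracellular microfibrils, had 2 counts against 50.2, 121, 121, 45.7 and 59.6 CPM, with the same 2 libraries high. COL8A2, a short-chain collagen of vessel walls and cornea, had 1 count against 21.1, 72.5, 84.6, 40.2 and 46.6 CPM. COL10A1, the collagen of hypertrophic cartilage and, in fish, of forming bone, had 153 counts (48.3 CPM) against 940.5, 2119, 2063, 934 and 1167 CPM, 19.3-fold below the lowest (counting interval 16.5 to 22.8). The median ratio of the 67 genes was 0.521, and the summed level of the list was 0.614 times that of the lowest other library in CPM, but 1.04 times with median-of-ratios scaling and 1.01 times with TMM scaling.

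Other members assemble or cut the matrix. The enzyme loxl2a, a lysyl oxidase that cross-links collagen and elastin, had 0 counts against 24.9, 32.2, 41.4, 29 and 35 CPM. Elastin itself, elnb, had 2 counts against 26.6, 119, 127, 39.7 and 56.9 CPM, and EMILIN2, a glycoprotein found with elastic fibres, had 2 counts against 23.9, 59.9, 70.5, 21.8 and 30.1 CPM. In these 2 genes, too, control replicate 3 and EM replicate 1 were the high libraries. acanb, an aggrecan of cartilage, had 0 counts against 12.8, 19.3, 35.7, 28.5 and 32.5 CPM, and CSPG4, a membrane proteoglycan, had 1 count against 17.9 to 62.4 CPM. Of 11 eligible matrix metalloproteases and ADAMTS proteases, chosen after the values were seen, 3 were members: ADAMTS15 with 0 counts against 12.8 to 33.7 CPM, MMP15 with 2 against 28.4 to 58 CPM, and ADAMTS10 with 1 against 13.2 to 33.6 CPM. The ratio was below 0.5 in 10 of the 11, and MMP2, a gelatinase, was at 84.6 CPM in control replicate 2 against 398 to 850.4 CPM.

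Digestive proteases made by the exocrine pancreas held 3 members of 19 eligible genes (15.8%). For ctrb.2, a chymotrypsinogen, control replicate 2 had 11 counts (3.47 CPM) and the others 115, 360.3, 361, 342 and 390.1 CPM. The trypsinogen prss59.1 had 50 counts (15.8 CPM) against 331, 1440.4, 1146, 1382 and 1071 CPM, and CPA1, a carboxypeptidase, had 6 counts (1.89 CPM) against 53.3, 416, 271, 549 and 275 CPM. In all 3 genes control replicate 1 was far below the other 4 libraries, which overlapped between the groups. The whole list of 13 pancreas markers was low as well, and its summed level was 391 CPM in control replicate 2, 2467 CPM in control replicate 1 and 8393 to 12080 CPM in the remaining 4 libraries. All 13 had a ratio below 0.5, with a median of 0.162, and only CPA1 and prss59.1 were members. The rule takes the lowest of the other 5 libraries as its reference, and for all 13 pancreas markers that reference was control replicate 1. A second gene named CPA1 was at 50.5 CPM against 367 to 1667 CPM, ela2, an elastase, at 8.83 against 143 to 745 CPM and amy2a, amylase, at 12.9 against 30.6 to 537 CPM.

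Some of the members are enzymes of lipid, amino acid and sugar metabolism. No list of such enzymes was counted except hexosamine synthesis, a family chosen after the values were seen, with 2 members of 2 eligible genes. DGAT2, GFPT2, prodha, cyp27a2 and ces2b are among the lowest ratios, and the others were chosen here after their values were seen. DGAT2, which catalyses the last step of triglyceride synthesis, had 2 counts in control replicate 2 and 144, 75.1, 70.6, 95.3 and 81.3 CPM in the others, with control replicate 1 the highest. GFPT2 and GFPT1 are the paired enzymes of the first step of hexosamine synthesis, which supplies the sugars of mucins and other glycoproteins. They had 2 and 3 counts, against 99, 77, 86.2, 65.6 and 81.8 CPM and 35, 32.8, 47.4, 35.9 and 53 CPM. prodha, proline dehydrogenase, starts the breakdown of proline in mitochondria and had 1 count against 68.4, 51.3, 47, 46.9 and 59.15 CPM. cyp27a2, a cytochrome P450 of the sterol 27-hydroxylase family, had 1 count against 51.2, 42.7, 47.8, 40.2 and 42.1 CPM. The 5 other libraries lay within 1.27-fold of one another for cyp27a2.

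The carboxylesterase ces2b was the steadiest of the members with more than 3 counts: 11 counts (3.47 CPM) in control replicate 2 against 205, 180.2, 177, 207 and 208 CPM, a range of 1.17-fold in the other 5, the lowest of which was 51.1-fold higher (counting interval 28.5 to 102). MAT2A, which makes S-adenosylmethionine, had 8 counts against 103 to 208 CPM. GLS2, the glutaminase of liver, had 2 against 29.9 to 55.6 CPM, and SHMT2, the mitochondrial enzyme of serine and glycine exchange, had 5 against 45.8 to 65.6 CPM. The tryptophan-degrading enzymes HAAO and ido1 had 8 and 2 counts against 74.1 to 112 and 17.6 to 29.3 CPM. GPD2, the mitochondrial glycerol phosphate dehydrogenase, had 2 counts against 27.1 to 31.5 CPM, nearly level in the other 5 libraries (1.16-fold), and PDK3, a kinase of pyruvate dehydrogenase, had 0 against 13.5 to 17.1 CPM. A1CF, a cofactor of apolipoprotein B message editing in mammals, had 9 counts against 186, 116, 114, 146 and 114 CPM. Control replicate 1 was the highest library for A1CF, GLS2, HAAO and ACO1, as for DGAT2.

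Solute carriers, the largest family of membrane transporters, held 10 members, or 4.93% of those eligible. SLC6A11 takes up the neurotransmitter GABA and had 0 counts in control replicate 2 against 29.6, 29.1, 29.7, 28.5 and 32 CPM, the narrowest range of all members at 1.12-fold. SLC25A1, the mitochondrial carrier that exports citrate, had 0 counts against 46.3, 23.2, 24.9, 26.6 and 31.8 CPM, with control replicate 1 the highest. SLC4A2, an exchanger of chloride and bicarbonate, had 0 counts against 24.1, 32.5, 34.2, 17.2 and 18 CPM. SLC27A4, a fatty acid transport protein, had 1 count against 40, 28.3, 28.7, 34 and 30.3 CPM, and SLC1A3, a glutamate transporter of glia, had 0 counts against 19.6, 13.5, 17.4, 16.5 and 17.5 CPM. The other 5 were SLC2A1, SLC17A6, SLC16A1, SLC6A8 and slc25a22a. Of the 12 eligible glia markers, SLC1A3 was the only member, with a ratio above 1 for 5 and below 0.5 for 4. The solute carrier family as a whole was not low under every scaling. Its summed level in control replicate 2 was 0.824 times the lowest other library in CPM and 1.42 times with median-of-ratios scaling, and the ratio was above 1 for 64 of its genes.

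The list of voltage-gated and release channels held 3 members of 39 eligible (7.69%). They were trpm4b.2, a channel of the TRPM4 type that passes sodium in response to calcium, SCN2B, an accessory subunit of sodium channels, and ITPR2, which releases calcium from the endoplasmic reticulum. trpm4b.2 and SCN2B had 0 counts against 15.3 to 26.8 and 12.3 to 15.8 CPM, and ITPR2 had 3 against 32.1 to 41.9 CPM. Most of the list was not low, with a ratio above 1 for 22 of 39 and a median of 1.14. LRRC8A and LRRC8C, subunits of the anion channel that lets cells adjust their volume, were 2 members of 4 eligible genes of that kind, a family chosen after the values were seen, and had 3 and 0 counts against 23.2 to 37.2 and 11.5 to 20.6 CPM.

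Genes of immune cells included RAG1, part of the recombinase that assembles antigen receptors in lymphocytes of the thymus and kidney marrow. It had 6 counts in control replicate 2 against 100.2, 144, 106, 63.9 and 99.1 CPM, 33.8-fold below the lowest (counting interval 15.5 to 92). Control replicate 3 was the highest and EM replicate 2 the lowest of the other libraries for RAG1, and the groups overlapped. The chemokine receptor CCR9, which draws T cells to thymus and gut, had 2 counts against 17.7 to 35 CPM. PRKCQ, a kinase of T cell receptor signalling, had 0 counts against 13.6 to 19.9 CPM. Neutrophil protease npsn, nephrosin of fish, had 2 against 28.3 to 73.7 CPM, and mhc2daa, an alpha chain of the class II molecules that present antigen to T cells, had 4 against 61.6, 151, 43.9, 43.8 and 28.3 CPM. cd34, a surface sialomucin of blood progenitors and vessel walls in mammals, had 9 counts against 119, 149, 172, 138 and 162 CPM, 41.9-fold below the lowest (counting interval 22.1 to 91.6). All 10 eligible leukocyte markers had a ratio below 0.5, with a median of 0.209 and RAG1 as the only member. Their sum was 96.2 CPM in control replicate 2 and 671 to 1098 CPM elsewhere.

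Some members act in the cells of most tissues. In the growth factor pathway through Ras, the receptor ERBB2 had 1 count, the GTPase kras 2 and the scaffold SHOC2 4, against 12.8 to 25, 18.3 to 33.3 and 35.2 to 45.2 CPM. RALB, a Ras-like GTPase, had 0 counts against 17.3, 22.8, 22.6, 22 and 30.1 CPM, and EXOC8, a subunit of the exocyst vesicle-tethering complex to which Ral proteins bind, had 1 against 21.8 to 28.3 CPM. The messenger RNA decay factor ZFP36L1 had 8 counts against 138, 204, 204, 151 and 129 CPM, 51.2-fold below the lowest. The kinesin heavy chain KIF5B had 4 against 28.5 to 38.2 CPM, the phosphatase PPM1A 6 against 38.9 to 52.3 CPM, and the transcriptional elongation factor AFF4 2 against 23.2 to 44.5 CPM. These genes were chosen after their values were seen.

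Developmental regulators were present as well. SOX9, the transcription factor of cartilage, testis and other tissues, had 0 counts in control replicate 2 against 16.1, 26.6, 28.4, 33 and 25.9 CPM. The receptor NOTCH1 had 0 counts against 19.4, 28.3, 28.6, 12.2 and 17.7 CPM, the growth factor BMP3 0 against 15.9 to 31.4 CPM, and the VEGF receptor KDR 1 count against 15.1 to 29.5 CPM. NFIX, a transcription factor of muscle and nervous system, had 7 counts against 50.5 to 73.8 CPM. SGCB, beta-sarcoglycan, belongs to the dystrophin complex of the muscle membrane and had 1 count against 37.2, 30.7, 32.9, 52.2 and 47.1 CPM, although the summed level of 37 fast muscle markers was higher in control replicate 2 than in any other library. In the same way SLC17A6, a vesicular glutamate transporter, had 0 counts against 12.2 to 19.7 CPM, while the summed neuronal markers were high. The myelin glycoprotein mag had 4 counts against 33 to 40.4 CPM.

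The remaining members among the 25 lowest with a gene symbol were plp2b with 0 counts against 41, 45.1, 44.5, 38.5 and 60.4 CPM, exoc3l2b, of the exocyst family, with 0 against 20.8 to 34.7 CPM, and apbb1, an adaptor that binds the amyloid precursor protein, with 0 against 20.6 to 31.8 CPM. SETBP1, which binds the nuclear protein SET, had 1 against 28.9 to 45.2 CPM, and eslec had 0 against 18.1, 66.5, 50.4, 20.6 and 32.3 CPM. For eslec control replicate 3 and EM replicate 1 were high and control replicate 1 and EM replicate 2 low. For plp2b the other 5 libraries stayed within 1.57-fold.

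**Figure D3:**
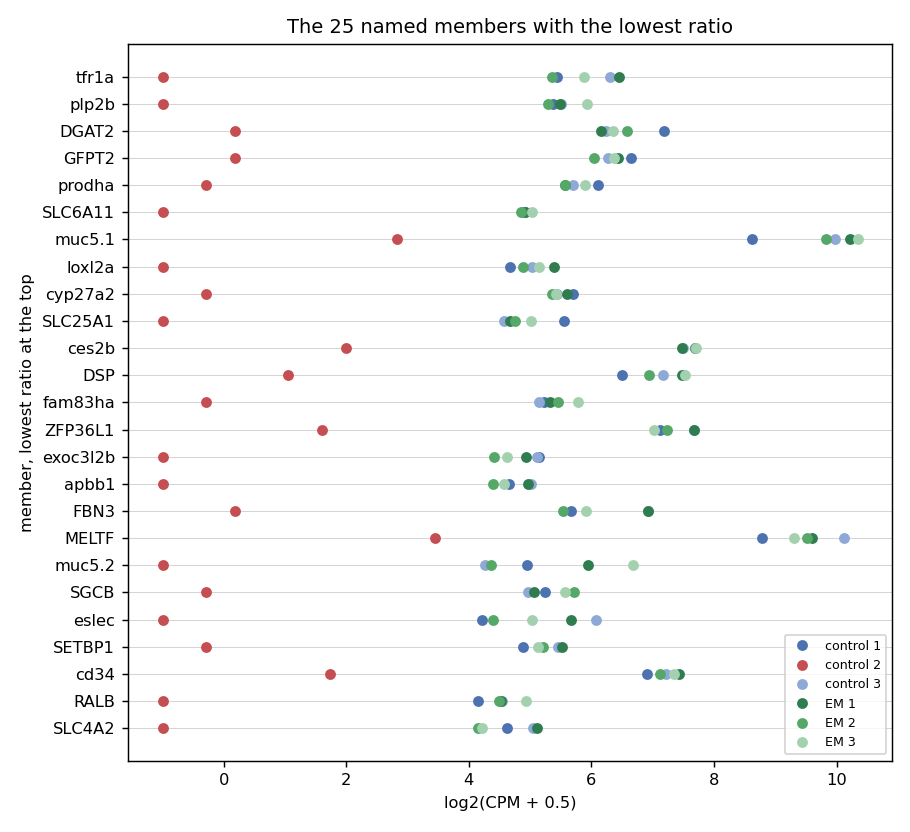
Level of the 25 members with a gene symbol and the lowest ratios in each library, as log2(CPM + 0.5), with 1 row per gene, 1 point per library, and the lowest ratio at the top. Control replicate 2 (red) lies apart at the left in every row, from 0 counts for tfr1a to 33 counts for MELTF, and the other 5 libraries lie together at the right.

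Whole marker lists show what else differed in control replicate 2. The sums for exocrine pancreas, leukocytes, cartilage and bone, liver, endothelium and epidermis were below those of every other library, at 0.158, 0.143, 0.421, 0.383, 0.431 and 0.488 times the lowest, and remained below under median-of-ratios and TMM scaling. They held 2, 1, 2, 0, 0 and 1 members. The list for liver thus contributed no member although 13 of its 22 eligible genes had a ratio below 0.5. Its ratio was above 1 for 2 genes. They were fabp10a, at 664 CPM in control replicate 2 against 457 to 553 CPM, and fga, at 417 against 342 to 649 CPM. In the epidermis list, the ratio was below 0.5 for 13 of 17 genes, and the keratins krt97, krt91 and krt4 had the highest ratios, 0.813, 0.730 and 0.719, with krt4 at 1013 CPM against 1409 to 2213 CPM.

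The sums for fast skeletal muscle, photoreceptors, neurons and lens were above those of every other library, at 1.82, 3.05, 1.85 and 1.05 times the highest, under all 3 scalings. Cytosolic ribosomal proteins summed to 1.93 times, and mitochondrially encoded genes to 2.14 times, the highest other library. None of the 91 eligible ribosomal protein genes, 37 muscle markers, 12 photoreceptor markers or 12 mitochondrially encoded genes was a member, beside 1.9% of all eligible genes. The part of these shifts in the level of the members was not tested. Sums for heart, red blood cells, glia and connective tissue matrix were below every other library in CPM, at 0.973, 0.870, 0.920 and 0.672 times the lowest, but above the lowest under both other scalings, so no direction is given for them. Intestine markers summed to 5334 CPM in control replicate 2, within the 4551 to 6885 CPM of the other libraries, and lay above all of them under both other scalings. The pigment cell list had only 2 eligible genes, and its sum was 0.269 times the lowest other library. The germ cell and oocyte list had 0 eligible genes, and its sum of 63.7 CPM lay within the 18.7 to 448 CPM of the other libraries.

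**Figure D4:**
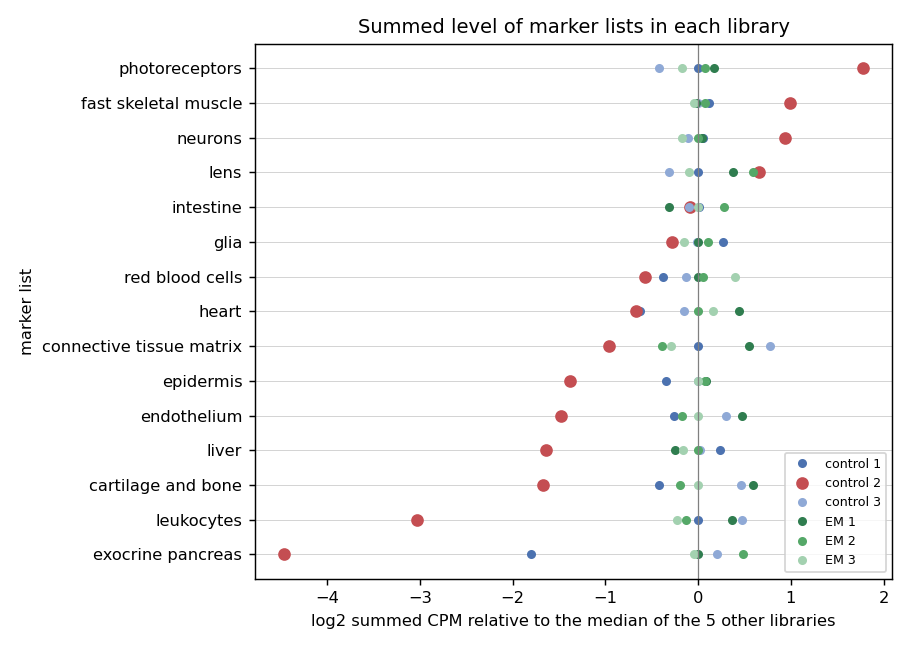
Summed CPM of 15 cell type marker lists in each library, as the log2 of the sum over the median of the 5 libraries other than control replicate 2. Control replicate 2 (red) is farthest to the left for exocrine pancreas and leukocytes and farthest to the right for photoreceptors, and control replicate 1 is also low for exocrine pancreas.

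The opposite end of the distribution gives a comparison. The 200 eligible genes highest in control replicate 2 relative to the highest other library had a median of 169 CPM in it against 33.3 to 40.8 CPM elsewhere. In the other 5 libraries the 2 sets of 200 genes therefore stood at similar levels. The set included tnks1bp1 at 2526 CPM against 57.4 to 196.5 CPM, the glutamate receptor gria4a at 173 against 14.6 to 20.6 CPM, and the photoreceptor disc protein rom1a at 381 against 30.2 to 52.3 CPM. It held 16 cytosolic ribosomal proteins, 7 photoreceptor markers and 5 neuronal markers. The members held 0, 0 and 1 gene of these lists, which had 91, 12 and 29 eligible genes. Of all eligible genes 1.9% were members, so lists of these sizes would hold few in any case.

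The members varied among the other 5 libraries slightly more than eligible genes in general. Their coefficient of variation over these libraries had a median of 23.1%, against 18.9% over all eligible genes, and the highest value was 1.77 times the lowest in the median member, against 1.59 times. The range stayed within 2-fold for 133 members and exceeded 3-fold for 19. CPA1 had the widest, 10.3-fold, followed by si:dkey-162h11.3 at 5.63-fold, muc5.2 at 5.42-fold, zgc:92590 at 5.37-fold and mhc2daa at 5.32-fold. Control replicate 1 was the lowest of the 5 libraries for 90 members (45.0%, against 26.7% of eligible genes), and EM replicate 2 for 55 (27.5%, against 21.7%). EM replicate 1 was the highest for 61 (30.5%, against 21.0%) and control replicate 3 for 54 (27%, against 17.2%). The choice of members used the lowest of these values, so this order is a description.

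Other lists gave few or no members, where 1.9% of all eligible genes were members, so that lists of these sizes would hold few in any case. There were 0 among 80 nuclear genes of oxidative phosphorylation, 58 mitochondrial ribosomal proteins, 37 proteasome subunits, 138 genes of RNA splicing and processing, 74 translation factors, 67 chaperones, 96 zinc finger proteins and 62 regulators of small GTPases. Chromatin regulators gave 1 of 115, ARID3A, motor proteins 1 of 75, KIF5B, and cadherins and protocadherins 1 of 31, cdh26.1. The giant cytoskeletal linkers gave 1 of 34, DSP, and receptors for Notch, TGF-beta and Wnt 1 of 21, NOTCH1. Ubiquitin ligases and proteases gave 2 of 100, RNF123 and rnf114. Other lists without a member were complement and coagulation (26 eligible), immediate early and stress genes (28), mediator and elongation factors (24), LDL receptors (14), histones (10), large membrane traffic proteins (8), checkpoint kinases (4), crystallins (36) and keratins (17). Of these, complement and coagulation, made mostly in the liver, had a low median ratio of 0.249, with 18 of 26 genes below 0.5. Secreted protease inhibitors, chosen after the values were seen, gave 4 of 30, which besides the spint genes were serpinb14, with 0 counts against 16.8 to 43.6 CPM, and itih3b.1, of a plasma protein family, with 11 against 108 to 159 CPM.

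Position in the genome was examined only as direct neighbourhood among protein-coding genes, and members lying farther apart on a chromosome were not compared. In the gene order of the reference annotation, 160 members could be placed, and muc5.1 with muc5.2 was the only pair that lay side by side.

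The comparison of EM-juveniles with control juveniles was then made without control replicate 2, whose low values chose the members. The libraries compared had entered the rule only through the minimum of 10 CPM in each and through the lowest of the 5, which was control replicate 1 for 90 members and EM replicate 2 for 55, so the comparison is not wholly apart from the choice of members. DESeq2 was fitted on the 3 EM libraries and control replicates 1 and 3 over the whole table, and 22930 genes received an adjusted p-value. Of these, 274 (1.19%) had an adjusted p-value under 0.05, 81 (0.353%) higher and 193 (0.842%) lower in EM-juveniles. Among the 200 members, 0 were higher and 1 was lower, or 0.5%, which is close to the background. At an unadjusted p-value under 0.05 there were 9 of the 200 members in DESeq2, beside 1324 of all 22930 genes tested. There were 7 members in edgeR, beside 1376 of 20784 genes, and 8 in limma voom, beside 1009 of 20784. In none of the 3 tools was the share of members higher than the share of all genes. The tested genes include many below the 10 CPM that the rule required of members. With only genes of at least 10 counts in every library, DESeq2 called 1 member, beside 37 genes higher and 19 lower of 17413. At an unadjusted p-value under 0.05 it then had 7 members, beside 683 genes. Without this filter, the median log2 fold change of the members was -0.01, against 0.01 over all tested genes. It was above 0 for 96 members and below 0 for 104, with quartiles at -0.20 and 0.20 and a median standard error of 0.34. The median moved with the controls, to 0.22 without control replicate 3 and to -0.14 without control replicate 1.

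The member called was mhc2daa, the class II antigen presentation gene. Its normalised read counts were 360 and 851 in the control libraries, replicates 1 and 3, against 237, 246 and 158 in the EM libraries. All EM values lay below both controls, and the controls differed from each other by more than the lower one did from the EM libraries. The log2 fold change was -1.50 ± 0.42 (SE, n = 3 EM and 2 control libraries), with an adjusted p-value of 0.0339 in DESeq2. In this comparison limma voom called 0 of all 20784 genes, so the lack of a call there is not particular to mhc2daa. The call was lost at nearly the same log2 fold change in edgeR (-1.51, adjusted p-value 0.396) and in limma voom (-1.40, adjusted p-value 0.686). It was also lost in DESeq2 without control replicate 3, where the log2 fold change was -0.75 and the adjusted p-value 0.966, and without EM replicate 2 (-1.61, adjusted p-value 0.0948) or EM replicate 3 (-1.33, adjusted p-value 0.218). Over all alternatives the adjusted p-value for mhc2daa ranged from 6.1e-05 to 0.966.

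Leaving out control replicate 3 had the largest effect on the members. The log2 fold changes of CPA1, ctrb.2, prss59.1, muc5.1 and si:dkey-162h11.3 were then 2.70, 1.59, 1.78, 1.45 and 2.12 in DESeq2. These 5 members were picked by that same comparison, and the median over all members was 0.22. In this comparison control replicate 1, which is low for pancreatic genes and muc5.1, was the only control library, and its spread was assumed to be that of the EM libraries. With both controls the same genes had values of control replicate 3 within or above those of the EM libraries for CPA1, ctrb.2 and prss59.1, and none was called. For CPA1 the log2 fold change was then 0.61 ± 1.03 (SE) with an adjusted p-value of 1.00 in DESeq2.

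Of the other members at an unadjusted p-value under 0.05, the cartilage proteoglycan acanb came closest to the threshold. Its normalised read counts were 74.7 and 109 in the controls against 193, 160.1 and 182 in the EM libraries, all EM values above both controls. The log2 fold change was 0.96 ± 0.31 (SE), with an adjusted p-value of 0.122 in DESeq2 and 0.550 in edgeR. For ACO1 the corresponding values were 383 and 200 against 188, 139 and 165, with a log2 fold change of -0.83 ± 0.37 (SE) and an adjusted p-value of 0.589 in DESeq2. For muc5.2 the groups overlapped, at 177 and 106 against 330, 113 and 566, and the adjusted p-value was 0.735 in DESeq2. Neither acanb, ACO1 nor muc5.2 passed the test. All 3 EM libraries lay above both controls for 12 members (6.0%, against 9.71% of all tested genes) and below both for 15 (7.5%, against 10.2%).

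With all 3 controls in the fit, as in the design of the study, control replicate 2 entered the control mean and the rule had already used it, so nothing is read from the counts. Of 23999 genes tested, 260 (1.08%) were called by DESeq2, 101 higher (0.421%) and 159 lower (0.663%), and 0 of the 200 members were among them. At an unadjusted p-value under 0.05 there were 0 members in DESeq2, beside 1673 of all 23999 genes, and 0 in edgeR, beside 759 of 19264. There were 9 in limma voom, beside 1611 of 19264 genes. With a replicate block in DESeq2 there were 23, beside 1039 of 21446 genes. The log2 fold change of the members ran from -0.95 to 1.81 with a median of 0.54, and was above 0 for 197 of them. The log2 fold change with all 3 controls exceeded that without control replicate 2 by 0.50 to 0.57, with a median of 0.55. This near-constant offset follows from the rule and is no result about the members. A library near 0 for every member lowers each control mean by nearly the same factor. The standard errors were larger too, as for mhc2daa, at -0.95 ± 1.00 (SE) in place of -1.50 ± 0.42 (SE).

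**Figure D5:**
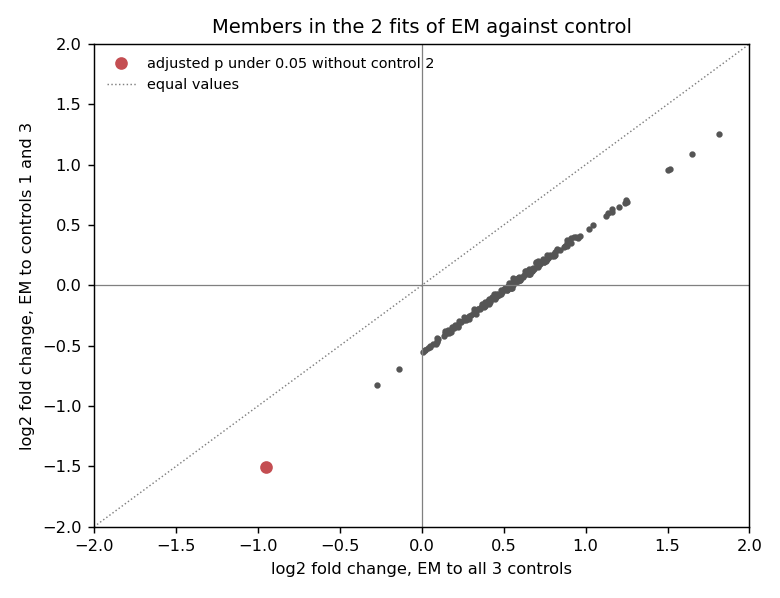
Log2 fold change of EM-juveniles to control juveniles for each of the 200 members, with all 3 controls on the horizontal axis and with control replicates 1 and 3 alone on the vertical axis, and mhc2daa in red. All points lie below the line of equal values by 0.50 to 0.57, an offset that follows from the rule, and on the vertical axis they centre on 0.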

How the data were processed

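Whole-body RNA of 3 EM pools and 3 solvent control pools was sequenced from stranded mRNA libraries. The authors aligned the reads to GRCz11 with Hisat2 2.0.5, removed duplicates with Samtools 1.5 and counted reads over exons with HTSeq 0.9.1, taking the reverse strand. What they deposited are raw counts of reads for each Ensembl gene, not normalised. Removing duplicates limits the counts of abundant genes, and reads shared by near-identical genes were not examined here. All columns of the table were matched to samples by their names, and 0 columns were left unused. Groups and replicate numbers were taken from the sample titles.

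CPM, the ratio and the list sums were computed with Python 3.11.15. Differences were tested in R 4.3.3 with DESeq2 1.42.0 (two-sided Wald test, median-of-ratios size factors, Benjamini-Hochberg adjustment over all genes tested, threshold 0.05), the tool and threshold of the study, in place of which edgeR 4.0.16 (quasi-likelihood test, TMM factors) and limma 3.58.1 voom with sample weights were tried. Other alternatives were TMM factors in DESeq2, filters on low counts, a minimum log2 fold change of 1, a replicate block, each library left out in turn, and other settings of the rule. The fits were checked on simulated data. Counting intervals are 95% exact Poisson intervals for the count in control replicate 2 alone, and the floor was 3 counts. Every pair of libraries within a group differed by more than sampling noise.

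The members and lists were chosen with earlier results of these data known. Named were the 25 members of lowest ratio with a gene symbol, the 2 lowest without, up to 5 members of each list with at least 3, members called in the comparison without control replicate 2, and the 3 genes on each side of the threshold. Other names were chosen after their values were seen. Names came from a table of reference gene names, which names 29201 of the 32520 identifiers of the table, and gene order from RefSeq annotation of a later assembly (GRCz12tu), so no coordinates are given. Sequences of the members were not used here.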

Additional observations from a re-analysis of the deposited data

How the results depend on the processing

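The membership held at 150 to 196 of 200 genes when a library other than control replicate 2 was left out, lowest without control replicate 1, and at 166 to 187 under most other settings of the rule. It fell to 82 with a pseudocount of 5, and to 108 with a minimum of 20 CPM, where no more than 108 members were eligible. For the 48 members with more than 3 counts, the median fold below the lowest other library was 16.2 with median-of-ratios and 16.6 with TMM scaling. Summed markers in control replicate 2 over the lowest other library turned from below to above 1 for heart (1.58 with median-of-ratios scaling, 1.51 with TMM), red blood cells (1.41, 1.36), glia (1.59, 1.52) and connective tissue matrix (1.14, 1.1), because both scalings raise that library.

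Without control replicate 2, edgeR and limma voom each called 0 members. Of all 20784 genes, limma voom called 0, and edgeR called fewer than the 274 of 22930 that DESeq2 called. At such shares a list of 200 genes would hold few or none, so these counts are no result about the members. With an EM library left out besides control replicate 2, DESeq2 called 1 of the 200 members each time. Of all genes, it called 551 higher and 228 lower of 24261 without EM replicate 1. The numbers were 24 and 154 of 23219 without EM replicate 2, and 39 and 164 of 23288 without EM replicate 3. The members called were mhc2daa without EM replicate 1, muc5.2 without EM replicate 2 and aste1a without EM replicate 3. The log2 fold change of mhc2daa ranged from -1.99 to -0.75 when any further library, EM or control, was left out. With all 3 controls, leaving out a library gave 0 to 1 called members. These were mhc2daa without control replicate 2 and CPA1 without control replicate 3 (log2 fold change 3.61, adjusted p-value 0.0133 in DESeq2). Without control replicate 3, 111 genes were higher and 159 lower of all 21231. The fits that called 0 members called 19 to 406 genes higher and 85 to 136 lower, of 21249 to 23332. The median log2 fold change of the members ranged from -0.01 to 1.17 over these fits, and was 0.20 in limma voom.

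Deviations of same-numbered libraries from their group means correlated at -0.15, 0.21 and -0.20 across 13119 genes. The control means included control replicate 2, and libraries of different number were not compared. These values therefore cannot show whether replicate numbers pair the libraries. With a replicate block, DESeq2 and edgeR called 0 members without control replicate 2. Of all genes, DESeq2 then called 13 higher and 74 lower of 19812, and edgeR 41 higher and 119 lower of 20784. With all 3 controls the block in DESeq2 called 1 member, muc5.2 (log2 fold change 2.56, adjusted p-value 0.0458), beside 64 genes higher and 110 lower of all 21446. The median log2 fold change of the members was 1.26 in DESeq2 and 1.14 in edgeR. The cause of these differences was not tested.

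The depth of control replicate 2 limits the folds of the 152 members with at most 3 counts to bounds or wide intervals, and 2 control libraries limit the comparison with EM. Tank, pool and preparation of a library cannot be told apart.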
